A study of Mauremys reevesii with 3 samples.

Results

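Small RNAs of Chinese pond turtle (Mauremys reevesii) embryos were compared between incubation at 32 °C, a temperature that yields females in this species, and incubation at 29 °C, an intermediate temperature. The comparison used 2 of the 3 libraries of the series, 1 from 32 °C and 1 from 29 °C; counts of the library from 26 °C, which yields males, are quoted for a few miRNAs. Embryos at Greenbaum stage 16 gave the adrenal-kidney-gonad complex, a block of tissue around the embryonic gonad. Each library was built from RNA pooled over 3 biological samples of 1 temperature, and the labels give no sex or genotype. With 1 library per temperature no difference has a replicate check, and the intervals given here are 95% exact (Clopper-Pearson) intervals that cover counting error only. Reads were amplified and carry no molecular identifiers, so copies of 1 molecule may be counted more than once and the intervals may be too narrow.

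In turtles with temperature-dependent sex determination the gonad forms on the surface of the mesonephros, the embryonic kidney, and the warmth of the egg during a middle window of development sets whether it becomes an ovary or a testis. A microRNA (miRNA) is cut from a hairpin precursor, whose arms give a 5p and a 3p strand. One strand is usually kept in the Argonaute protein and the other mostly discarded. The kept strand represses messenger RNAs that pair with its seed, bases 2 to 8, so miRNAs with 1 seed form a family that shares many targets.

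The table held 1743 rows, 1013 with names of known miRNAs and 730 predicted entries. The prefix of a known name is the species of the matched reference sequence, not the animal sampled. Rows of 1 mature miRNA under several species names were counted once, by the row with the highest summed count, which left 1103 entries. Ratios were taken for 462 entries, 270 named and 192 predicted, that reached 10 counts in 1 or both libraries, and 641 were under that minimum. Because the same reads were often listed under several names, each count is also given over 513 distinct read groups, which join rows that share 16 bases and have near-equal counts in all libraries. The counts summed to 9613861 at 32 °C and to 9624436 at 29 °C, so 1 count was worth 0.104 CPM (the count scaled to a total of 1000000) in either. A ratio is the log2 of CPM at 32 °C over CPM at 29 °C, and an entry is called higher or lower at 32 °C when it was at least 2-fold apart and its interval excluded equality.

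The sequences that carry the results are given 5′ to 3′ as listed in the table, with the seed in capitals. The first set holds the named miRNAs furthest apart between the libraries, from the gonad, from blood cells and from other hairpins.
mmu-miR-202-5p: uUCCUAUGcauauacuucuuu
dre-miR-202-3p: aGAGGCAUagggcaugggaaaa
hsa-miR-223-3p: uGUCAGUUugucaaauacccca
hsa-miR-223-5p: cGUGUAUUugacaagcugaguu
aca-miR-142-3p: uGUAGUGUuuccuacuuuaug
hsa-miR-451a: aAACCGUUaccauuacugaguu
oan-miR-15c-3p: cAGACCAUucugggcugccuca
dre-miR-2188-5p: aAGGUCCAaccucacaugucc

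The second set holds miRNAs with 1 seed whose ratios are set side by side further on, together with both strands of miR-130b.
gga-miR-7: uGGAAGACuagugauuuuguug
mmu-miR-7b-5p: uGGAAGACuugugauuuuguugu
dre-miR-152: uCAGUGCAugacagaacuuugg
fru-miR-152: uCAGUGCAuaacagaacuuugu
bta-miR-221: aGCUACAUugucugcuggguuu
gga-miR-222a: aGCUACAUcuggcuacugggucuc
mmu-miR-130b-5p: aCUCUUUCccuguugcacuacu
aca-miR-130b-3p: cAGUGCAAuaaugaaagggc

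The third set holds predicted entries, of which the first pair shares a seed.
novel_16: aGGUGUAAacugauauagcucu
novel_105: uGGUGUAAauuguuauagcuc
novel_642: uGUGUCUGucuucgugggc
novel_59: cUAACUGUuugcaggauucgu
novel_517: uCUGGGCAguguccacuggcu
novel_595: aUUGACUUuagugggcuuugga

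More entries were lower than higher in the 32 °C library. Of the 462 entries, 19 were higher (4.11%) and 50 were lower (10.8%), and over read groups 19 of 513 were higher (3.7%) and 57 lower (11.1%). Known miRNAs took a small part of the higher ones: 2 of 270 named entries were higher and 18 lower, against 17 higher and 32 lower of 192 predicted entries. The 2 higher named entries were 1 read group, miR-451a under a pair of names, and the 18 lower ones were 15 read groups. The middle of the table lay below 0, with a median ratio of -0.19 and quartiles of -0.56 and 0.15. TMM factors of edgeR, which scale on the bulk of the rows in place of the column total, raised every ratio by 0.15 and put the median at -0.031. With them 31 entries were lower, and higher entries made up 41.5% of those called, beside 27.5% on the column total and 35.7% with the size factors of DESeq2.

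Most entries called at the 2-fold threshold were scarce. Smaller differences were more frequent: of all 462 entries, the interval lay below equality in 154 and above it in 53. Below a mean of 10 CPM, 19 of 268 entries were higher and 41 lower. Between 10 and 100 CPM 0 of 106 were higher and 7 lower, and between 100 and 1000 CPM 0 of 43 were higher and 2 lower, namely miR-202-5p and the predicted entry novel_16. None of the 45 entries above 1000 CPM was called in either direction, and the median ratio of that class was -0.09.

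**Figure D1:**
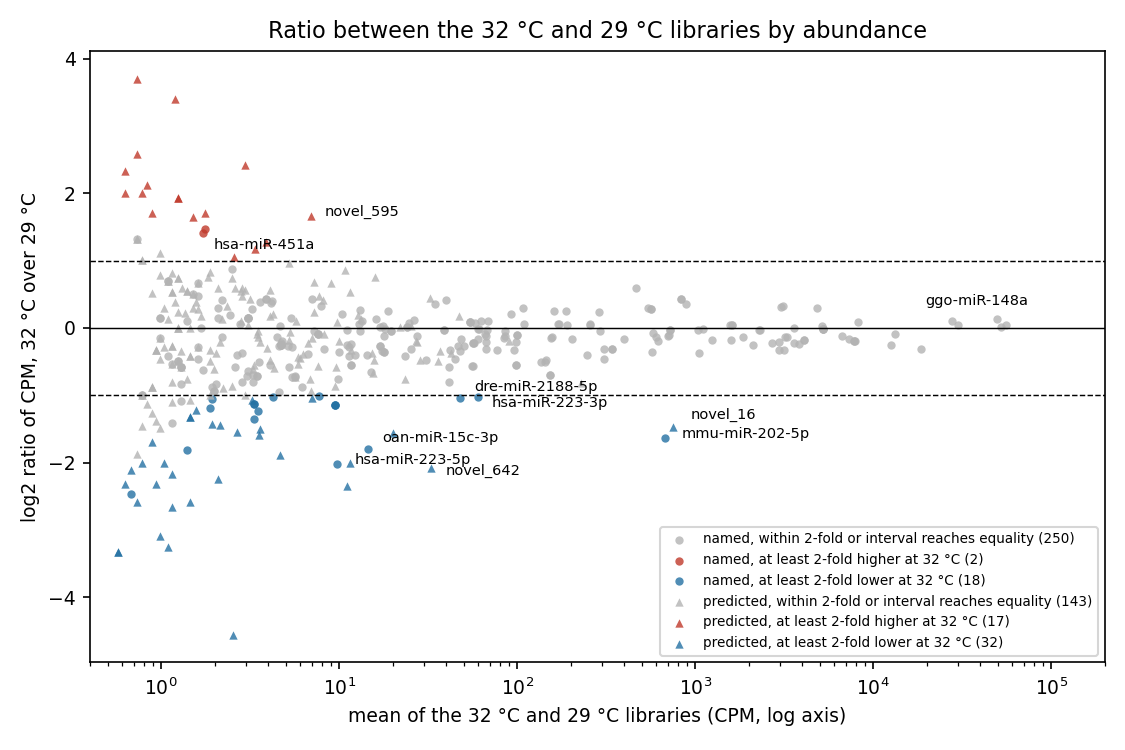
Each point is 1 of the 462 entries, placed by its mean level over the 32 °C and 29 °C libraries (CPM, log axis) and by its log2 ratio of CPM, 32 °C over 29 °C; circles are named miRNAs, triangles predicted entries, red points higher and blue points lower at 32 °C, and dashed lines mark 2-fold. Red points lie only below a mean of 10 CPM, while mmu-miR-202-5p and novel_16 are the blue points above 100 CPM.

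The gonad miRNA miR-202 was lower at 32 °C on both strands of its hairpin. In vertebrates miR-202 is produced mainly in the ovary and testis. Its main strand mmu-miR-202-5p had 3140 counts in the 32 °C library against 9800 counts in the 29 °C library, and 7500 counts at 26 °C. The ratio was -1.64 (-1.70 to -1.58), so the 32 °C library was the lowest of the 3. The other strand dre-miR-202-3p reached 28 counts at 32 °C, compared with 107 at 29 °C, a ratio of -1.93 (-2.59 to -1.32). As a share of the hairpin's counts the 3p strand was 0.884% at 32 °C and 1.08% at 29 °C, and the interval of that strand ratio included equality. The remaining miR-202 read groups are scarcer variants of these same strands listed under other names. ssa-miR-202-5p carries the 3p strand despite its name, with the seed AAGAGGC, and had 12 against 29 counts. dre-miR-202-5p has the seed of mmu-miR-202-5p and had 9 against 23 counts. All 4 miR-202 read groups were called lower, on the column total and with both other scalings. In bulk tissue, fewer cells of a type and less of its RNA per cell cannot be told apart.

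The other miRNAs typical of germ cells or of the tissue block had smaller ratios. The miR-34 family, typical of ciliated epithelia and of the germ line, was represented by gga-miR-34b-5p with 31837 counts at 32 °C against 37077 at 29 °C, a ratio of -0.22 (-0.24 to -0.20). Its cluster partner bta-miR-34c had a ratio of -0.22 on 24065 against 28134 counts. Both lay next to the table's median. The pluripotency miRNA gga-miR-302d, which early germ cells also express, had 102 counts at 32 °C, against 135 counts at 29 °C, for a ratio of -0.40 (-0.79 to -0.02). For the kidney, ola-miR-192-5p had 25229 counts at 32 °C and 31766 at 29 °C, a ratio of -0.33 (-0.35 to -0.31). mmu-miR-194-5p, from the same clusters, had 6899 against 7058 counts and a ratio of -0.03 (-0.08 to 0.02), which is 0.12 with TMM factors. Of the 6 kidney entries 1 was lower, xtr-miR-215 with 11 against 25 counts, beside 10.8% of all entries. With TMM factors its ratio is -1.03 (-2.20 to 0.05), past 2-fold with an interval that reaches equality. The 4 read groups with its seed, UGACCUA, include hsa-miR-215-5p and efu-miR-192, and only xtr-miR-215 was called. Their counts summed to 2263 against 2389, a ratio of -0.08 (-0.16 to 0.01). The far more counted ola-miR-192-5p, at -0.33, is listed with another start and the seed GACCUAU, and is not in this sum. The steroidogenic list (miR-132 and miR-212), the cartilage miRNA miR-140 and the hypoxia miRNA miR-210 had no entry past the count minimum here.

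The block also carried miRNAs of neighbouring organs. The hepatocyte miRNA cgr-miR-122 was counted 1680 times in the 32 °C library and 1410 times in the 29 °C library, a ratio of 0.25 (0.15 to 0.36), with 5629 counts at 26 °C. The exocrine pancreas miRNA hsa-miR-217 had 785 against 855 counts, a ratio of -0.12 (-0.26 to 0.02), which is 0.03 with TMM factors. The part of adjoining tissue in the other ratios was not tested.

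Among blood-cell miRNAs, those of leukocytes had ratios below 0 under every scaling tried. The leukocyte list, of miR-223, miR-142, miR-146 and miR-150, had 0 of 10 entries higher and 5 lower, 3 of which were names of miR-142-3p. Over read groups 3 of 10 were lower, beside 11.1% of all. All 10 ratios were below 0 with a median of -0.75, beside -0.18 over all read groups. The 10 read groups summed to 741 counts at 32 °C against 1448 at 29 °C, a ratio of -0.96 (-1.09 to -0.84). The larger part of this sum was miR-223, with 404 against 815 counts of the 3p strand and 37 against 150 of the 5p strand.

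The granulocyte and monocyte miRNA miR-223 led the list. hsa-miR-223-3p had 380 counts at 32 °C against 774 at 29 °C, with 369 at 26 °C, and a ratio of -1.02 (-1.21 to -0.85). Its other strand hsa-miR-223-5p had 37 against 150 counts, with 46 at 26 °C, and a ratio of -2.02 (-2.58 to -1.49). For both strands the 32 °C and 26 °C counts were close and the 29 °C count was high. The pan-leukocyte miRNA aca-miR-142-3p reached 57 counts at 32 °C, compared with 126 at 29 °C, a ratio of -1.14 (-1.62 to -0.68). Below 2-fold were gga-miR-142-5p at -0.73 (-1.32 to -0.15), the innate-immunity miRNA dre-miR-146a at -0.55 (-0.95 to -0.15) and the lymphocyte miRNA xtr-miR-150 at -0.22 (-0.85 to 0.40). With TMM factors hsa-miR-223-3p and aca-miR-142-3p were under 2-fold, at -0.87 and -0.99, which left hsa-miR-223-5p as the 1 called read group of 10.

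Red-cell miRNAs were scarce. hsa-miR-451a, which is made in erythroid cells by Argonaute 2 without Dicer, had 25 counts at 32 °C, against 9 counts at 29 °C, for a ratio of 1.48 (0.33 to 2.76), and 44 at 26 °C. dre-miR-144-5p, from the miR-451 cluster, had 2 counts against 11, a ratio of -2.46 (-5.67 to -0.26), which was called. With the counts of the further miR-144-5p rows added, its ratio is -0.87 (-2.59 to 0.69) and is not called. The 2 read groups held 27 counts at 32 °C and 20 at 29 °C in all.

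**Figure D2:**
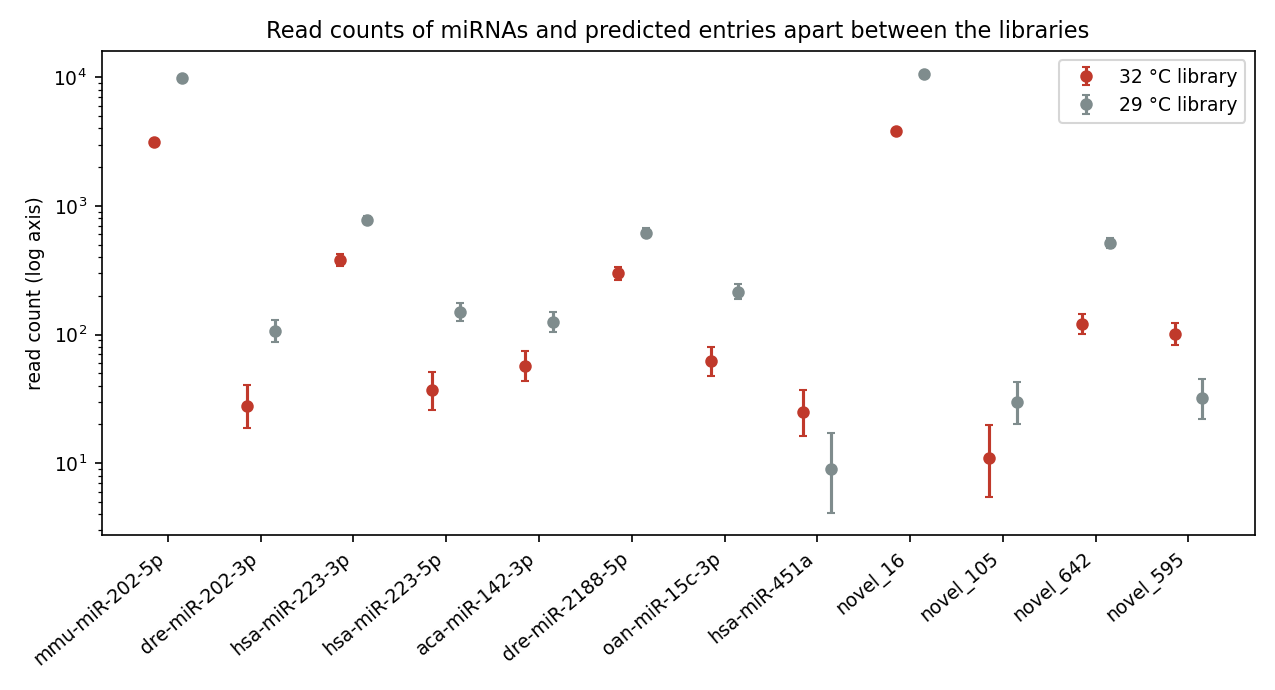
Read counts (log axis) of 8 named miRNAs and 4 predicted entries, with 32 °C in red left of 29 °C in grey; bars are exact Poisson 95% intervals of a single count and are hidden by the points where counts are high. All but hsa-miR-451a and novel_595 have the lower count at 32 °C.

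None of the mesenchymal, endothelial and epithelial entries was called. The smooth-muscle miRNA ola-miR-143 had 158077 counts at 32 °C and 197058 at 29 °C, a ratio of -0.32 (-0.33 to -0.31). Its cluster partner dre-miR-145-5p had a ratio of -0.19, and the discarded strand hsa-miR-145-3p, with 1117 against 1819 counts, one of -0.70 (-0.81 to -0.59). The fibroblast miRNAs aca-miR-199a-5p and cgr-miR-214-3p, of 1 cluster, stood at -0.32 and -0.31. The opposite strand of miR-199a, gga-miR-199-3p, had 49931 against 50730 counts and stood at -0.02, which is 0.13 with TMM factors. Over the 14 mesenchyme entries the median was -0.25, and over the 19 read groups it was -0.25, or -0.10 with TMM factors.

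The endothelial miRNA mmu-miR-126a-3p reached 70359 counts at 32 °C, compared with 80669 at 29 °C, a ratio of -0.20, and the endothelial read groups had a median of -0.32. Among epithelial miRNAs a pair of close relatives had ratios of opposite sign. oan-miR-205-5p had 435 counts at 32 °C against 327 at 29 °C and a ratio of 0.41 (0.20 to 0.62), whereas gga-miR-205b had 360 against 451 counts and a ratio of -0.32 (-0.53 to -0.12). With TMM factors gga-miR-205b is at -0.17 (-0.37 to 0.03), an interval that reaches equality. The epithelial miRNA xla-miR-429, of the miR-200 family, stood at -0.19. The miR-182 strands, of a cluster known from sensory epithelia, had few reads, with 18 counts at 32 °C against 46 at 29 °C for aca-miR-182-3p, which was called lower at -1.35 (-2.23 to -0.54).

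Striated muscle and nervous system miRNAs held no called entry; with TMM factors 1 scarce read group, fru-miR-137 with 31 against 17 counts, was higher. The muscle miRNA mdo-miR-206 had 440 counts at 32 °C, against 528 counts at 29 °C, for a ratio of -0.26, and gga-miR-1b-3p 30 against 58, a ratio of -0.95 (-1.64 to -0.29). Only these 2 of the 8 muscle read groups had ratios below 0. The others include bta-miR-133c at 0.43 and spu-miR-133 at 0.66. The median was 0.25 over the muscle read groups and 0.08 over the entries. Summed, the 8 muscle read groups had 1379 against 1406 counts. Of the nervous system list, miR-7 was by far the most counted and is described with its family, and the neuronal miRNA miR-137 had 105 against 107 counts for chi-miR-137. Outside the lists, efu-miR-153, of another neuronal family, had 52 counts at 32 °C against 25 at 29 °C and a ratio of 1.06 (0.34 to 1.81). It was the only named read group besides miR-451a that was higher; the joined entry that holds it is represented by the more counted novel_54 and was not called. It is named here after its value was seen.

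**Figure D3:**
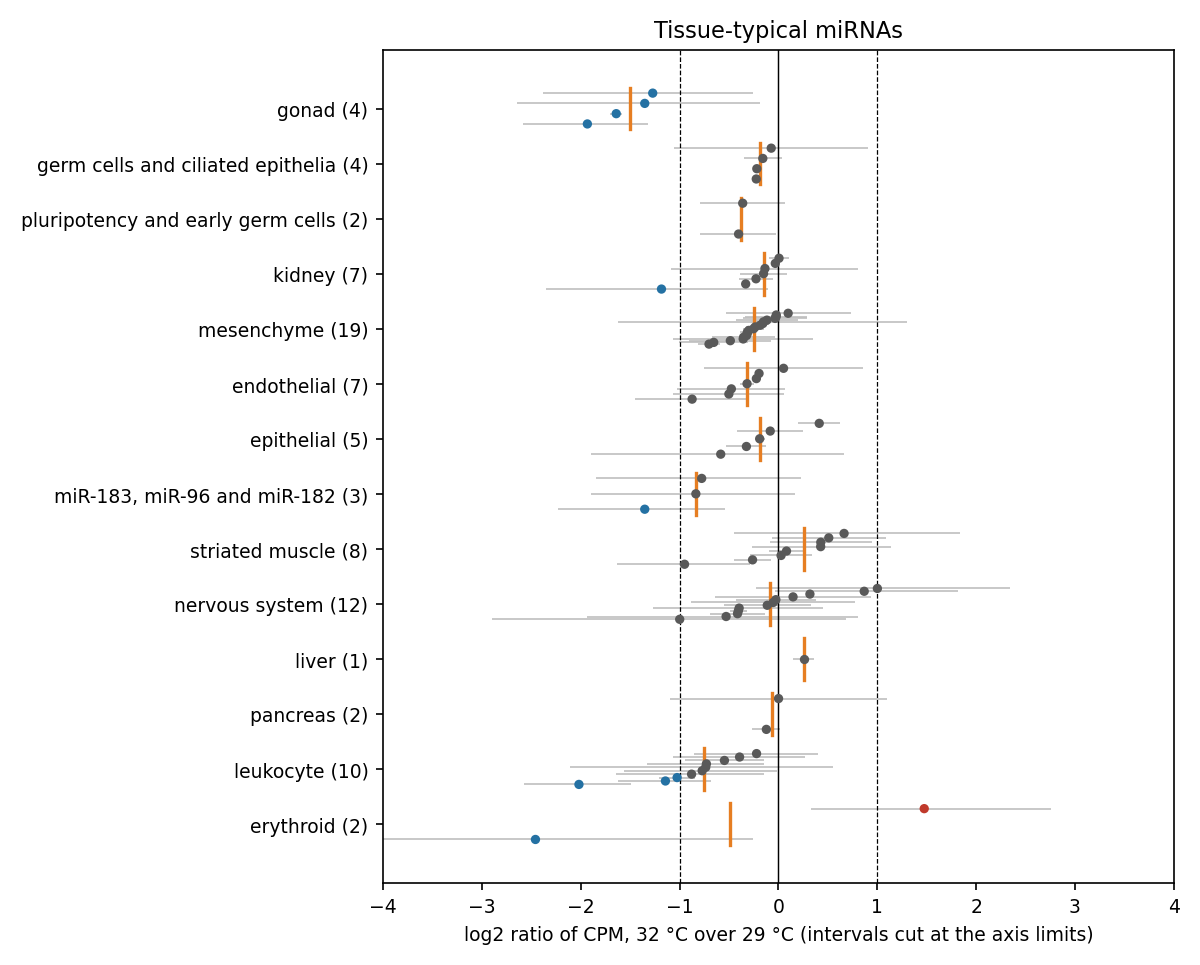
Log2 ratio of CPM, 32 °C over 29 °C, of the read groups of 14 lists of tissue-typical miRNAs, with the number of read groups in brackets; grey lines are 95% intervals, orange bars list medians, and blue and red points are called lower and higher. The 4 gonad points and the 10 leukocyte points all lie left of 0. So do the 4 points of germ cells and ciliated epithelia and the 2 of pluripotency and early germ cells. The 3 of miR-183, miR-96 and miR-182 and 18 of the 19 of mesenchyme lie there too. The median of all read groups was -0.18. The medians of the kidney, pancreas and nervous system lists, all near 0, change sign with TMM factors.

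Among the large families, no member of the Hox-cluster families was called. The miR-10 family took 42.4% of the counts with 1 row per miRNA at 32 °C (42.32% to 42.42%) and 39.96% at 29 °C (39.92% to 40.01%). Over distinct read groups it had 2544242 of 4578170 counts at 32 °C and 2430970 of 4623152 at 29 °C. Those shares are larger in both libraries, so the share depends on how rows are joined. Its members were spread, with ratios of 0.13 for mmu-miR-10b-5p on 500926 against 458331 counts, 0.01 for hsa-miR-10a-5p on 505146 against 501252, and -0.09 for ssa-miR-10d-5p on 124404 against 132332. miR-10a and miR-10b differ at 1 base outside the seed, U12A, with positions counted from the 5′ end and the base of the first-named sequence first. gga-miR-196-5p, also encoded beside Hox genes, had 5914 counts at 32 °C and 4885 at 29 °C, a ratio of 0.28 (0.22 to 0.33). With TMM factors ssa-miR-10d-5p is at 0.07, so its direction depends on the scaling.

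The miR-221 and miR-222 family, which promotes proliferation by repressing the cell-cycle inhibitor p27, had the highest median of the 17 families, 0.30 over entries and 0.34 over read groups. bta-miR-221 reached 9614 counts at 32 °C, compared with 7545 at 29 °C, a ratio of 0.35 (0.31 to 0.39). gga-miR-222a had 9148 against 6765, a ratio of 0.44 (0.39 to 0.48). Summed over the 4 read groups with their seed, GCUACAU, the counts were 24383 against 18760 and the ratio 0.38 (0.35 to 0.41). The other strand of miR-222a did not share this: aca-miR-222a-5p had 921 against 995 counts, a ratio of -0.11, which is 0.05 with TMM factors.

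Members of a single seed family also parted. In the miR-7 family, gga-miR-7 had 33098 counts at 32 °C, against 26560 counts at 29 °C, for a ratio of 0.32 (0.30 to 0.34), with 21124 at 26 °C. mmu-miR-7b-5p, which differs by A10U and has a further base at its 3′ end, had 2036 against 2699 counts and a ratio of -0.41 (-0.49 to -0.32). The intervals lie on opposite sides of equality, also with TMM factors. miR-7 is typical of neurons and endocrine cells.

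In the miR-30 family, abundant in kidney epithelium, hsa-miR-30c-5p had 51485 counts at 32 °C and 41863 at 29 °C, a ratio of 0.30 (0.28 to 0.32). mml-miR-30b-5p, with the same seed, had 8870 against 11449 and a ratio of -0.37 (-0.41 to -0.33). In the miR-148 and miR-152 family, ggo-miR-148a, the most counted miRNA of the table, reached 546351 counts at 32 °C, compared with 530316 at 29 °C, a ratio of 0.04. Within it a pair of miR-152 sequences diverged. dre-miR-152 had 547 against 614 counts, a ratio of -0.17 (-0.33 to 0.00), and fru-miR-152 180 against 467, a ratio of -1.37 (-1.63 to -1.12). They differ at 2 bases outside the seed, G10A and G22U, and fru-miR-152 is a read group of its own that the name-based entries leave under dre-miR-152.

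The remaining families held few calls. The medians over entries were -0.13 for let-7, which times development, -0.07 for miR-17-92 and its paralogs, which drive proliferation, and -0.21 for miR-99 and miR-100. They were 0.04 for miR-125, which is -0.19 over its 7 distinct read groups, -0.11 for the list of miR-130, miR-301 and miR-454, and -0.41 for miR-15 and miR-16, which restrain the cell cycle. With TMM factors those of let-7, miR-17-92 and miR-130 are above 0. The most counted let-7 member, gga-let-7i, had 33815 counts at 32 °C, against 40083 counts at 29 °C, for a ratio of -0.24, and dre-miR-125a 5740 against 4662, a ratio of 0.30 (0.25 to 0.36). The widely expressed miRNA sha-miR-21 had 70 against 119 counts, a ratio of -0.76 (-1.21 to -0.33). Of the 40 lists, 34 had an entry past the minimum, 26 of these had a median below 0, and 10 held a called entry.

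**Figure D4:**
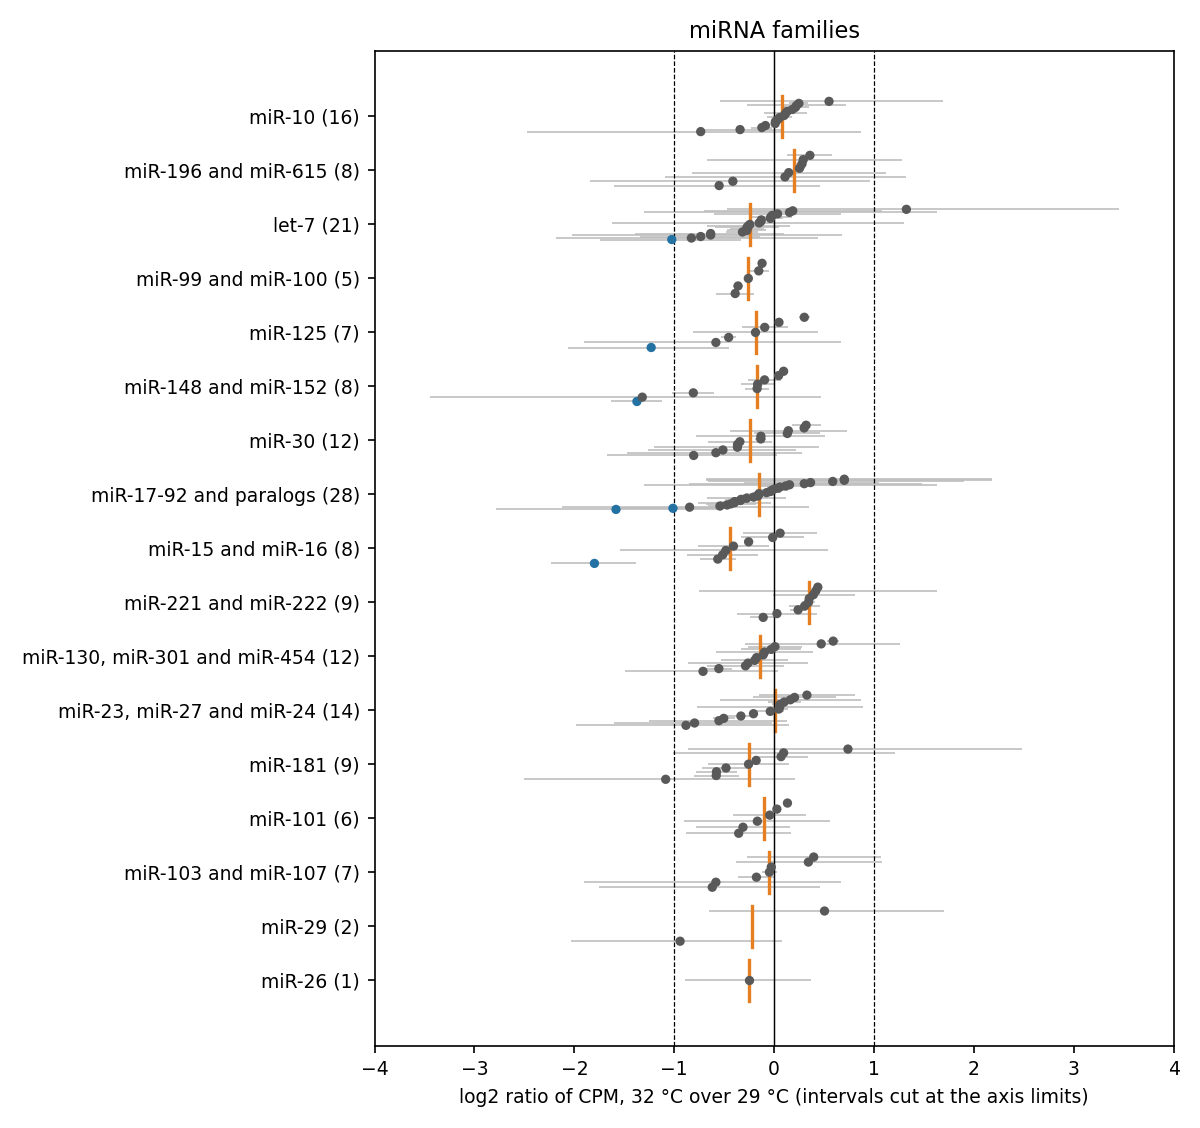
Log2 ratio of CPM, 32 °C over 29 °C, of the read groups of 17 miRNA families, with the number of read groups in brackets; grey lines are 95% intervals, orange bars family medians, and blue points are called lower. The miR-221 and miR-222 family has the rightmost median, 0.34; the medians of miR-101, of miR-103 and miR-107 and of miR-130, miR-301 and miR-454 change sign with TMM factors.

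Grouped by seed, the 513 read groups had 351 seeds, of which 66 were shared by at least 2 read groups. The seed was read from the row that stood for a read group, and rows were joined on either strand. That row can hold the opposite strand or another start, so some of these seeds are not the seed of the miRNA. The miR-125b-5p reads, 15762 against 15261, thus fell under CACAAGU together with hsa-miR-125b-2-3p, the other strand of the hairpin. With counts summed per seed, 4 of the 66 were lower at 32 °C and 0 were higher. Of single read groups 11.1% were lower and 3.7% higher. Of the 4 lower seeds, 2 belong to known miRNAs, UCCUAUG of miR-202-5p with 3149 counts against 9823 and GUCAGUU of miR-223-3p with 404 against 815. The others belong to predicted entries, GGUGUAA with 3834 against 10676 and AAGAUAC with 38 against 104. At 32 °C mmu-miR-202-5p gave 3140 of the 3149 counts and hsa-miR-223-3p 380 of the 404. GGUGUAA was nearly all novel_16, so these sums largely restate single entries.

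The other named miRNAs called lower were mostly scarce. dre-miR-2188-5p, of a hairpin known from fish, frogs and birds, had 300 counts at 32 °C and 617 at 29 °C, a ratio of -1.04 (-1.24 to -0.84). oan-miR-15c-3p had 62 against 216, a ratio of -1.80 (-2.23 to -1.39), with 218 at 26 °C. Under 100 counts in both libraries were aca-miR-125a-3p at -1.23, bta-miR-22-3p at -1.14, hsa-let-7c-3p at -1.02, gga-miR-92-5p at -1.01 and rno-miR-3556b at -1.06. rno-miR-3556b was not a read group of its own, so its reads are also listed under another name. The read group that holds them was not called. The entry novel_111, joined to miR-3618, had 6 against 21 counts. Among read groups hidden under other entries, ggo-miR-92b was lower with 10 counts against 30 and hsa-miR-365b-5p with 7 against 27. Among these, TMM factors put dre-miR-2188-5p, bta-miR-22-3p, hsa-let-7c-3p, gga-miR-92-5p and rno-miR-3556b under 2-fold.

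Predicted entries gave 49 of the 69 calls. The most counted, novel_16, had 3823 counts at 32 °C against 10646 at 29 °C, with 5993 at 26 °C, and a ratio of -1.48 (-1.53 to -1.42). novel_105, with the same seed, differs from novel_16 by A1U, C10U and A13U and lacks its last base. novel_105 had 11 against 30 counts and a ratio of -1.45 (-2.59 to -0.41). novel_642 had 121 against 512 counts, with 1805 at 26 °C, and a ratio of -2.08 (-2.38 to -1.79). These 3 entries were called lower under both other scalings as well.

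Further lower entries were novel_59 with 35 counts at 32 °C against 178 at 29 °C, novel_55 with 44 against 177, and novel_52 with 97 against 287. novel_517 had 2 counts against 47, a ratio of -4.55 (-7.64 to -2.62). novel_556 had 0 against 13, which is 4.33-fold lower when the 0 is set to the floor of 3 counts. The interval of its ratio lay below -1.61. The higher entries had few reads. novel_595 reached 101 counts at 32 °C, compared with 32 at 29 °C, a ratio of 1.66 (1.07 to 2.28), novel_532 had 48 against 9, and novel_98 53 against 22. novel_99 had 21 against 2, a ratio of 3.39 (1.36 to 6.53), and novel_216 13 against 1, a ratio of 3.70 (0.97 to 9.11). novel_594 had 12 counts at 32 °C and 0 at 29 °C, which is 4.004-fold higher on the same floor, with an interval above 1.48. Without annotation these entries cannot be tied to a hairpin, and their names carry no function.

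A repeated stretch marked some predicted entries. The letters CUGAAGUCGA, or UCGACUUCAG on the other strand, chosen after the sequences were seen, occurred in 11 of 215 predicted read groups (5.12%) and in 0 of 298 named ones. They were picked as the most frequent run of 10 letters among the predicted read groups alone. That choice favours a higher share in predicted than in named read groups. Of the carriers printed below, novel_441 at -0.20 and novel_508 at -0.31 had close ratios. The scarcer novel_799 stood at -1.58 (-2.47 to -0.77). Their sequences and counts follow, again with the seed in capitals.
novel_441: aAUAAGAUacgucgacuucagcu
novel_508: uCUAAGAUacgucgacuucagcu
novel_799: uAAGAUACaucgacuucagcu
novel_441 had 244 counts at 32 °C against 281 at 29 °C, novel_508 164 against 204, and novel_799 17 against 51. Some of the 11 read groups overlap in sequence. novel_81, with 219 against 245 counts, is the reverse complement of novel_441 without an end base, and novel_82 is novel_508 without its last base. Whether the same reads were counted in both of a pair was not tested, so the sum may hold reads more than once. Over the 11 read groups ratios ran from -1.58 to 0.74, 2 were lower and 0 higher, and the counts summed to 968 against 1045. Lower calls made up 11.1% of all read groups and 17.7% of the predicted ones. Of the 2, novel_82 had 12 counts at 32 °C against 25 at 29 °C and a ratio of -1.06 (-2.18 to -0.01), which is -0.90 (-2.03 to 0.14) with TMM factors and -0.95 (-2.07 to 0.10) with DESeq2 size factors, uncalled with either. Over all entries, uridine was the first base in 47.4% of higher, 46.0% of lower and 51.1% of uncalled entries, with median GC contents of 50%, 44.2% and 45.5%. Of the 19 higher entries 17 were predicted. Uncalled predicted entries had a median GC content of 50% and uncalled named ones of 45%.

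The less counted strand of a hairpin was lower relative to its partner more often than higher at 32 °C. This ratio of strands does not depend on how libraries are scaled. Strands were paired by miRNA name in 45 hairpins with at least 30 counts of each strand. The less counted strand had the lower odds at 32 °C in 30 hairpins and the higher odds in 15, and the interval lay below equality in 17 and above it in 4. Some of the 30 may rest on the same reads. The less counted strands of miR-214 and miR-3120 had 151 against 193 and 150 against 192 counts. Those of miR-130a and miR-3590 both had 25 against 41. The intervals of these hairpins include equality, so they are not among the 17. The median log2 odds ratio was -0.15. At the 2-fold threshold 1 hairpin was lower (2.22%) and 0 higher (0%).

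The hairpin past 2-fold was miR-15c, where the 3p strand was 12.5% of the counts at 32 °C and 25.1% at 29 °C, a log2 odds ratio of -1.23 (-1.70 to -0.78). The 5p strand, oan-miR-15c-5p, had 435 counts at 32 °C against 644 at 29 °C. dre-miR-15b-5p had near-equal counts, 432 against 642, and was not a read group of its own. The 5p counts therefore cannot be assigned to miR-15c alone, and the call of this hairpin rests on them. In miR-223 the 5p strand was 8.87% at 32 °C and 16.2% at 29 °C, an odds ratio of -0.99 (-1.58 to -0.43) in log2. In miR-148a, gga-miR-148a-5p had 289 counts at 32 °C against 507 at 29 °C while ggo-miR-148a was level, giving -0.85 (-1.07 to -0.64). The miR-7 hairpin, whose main strand had the higher count at 32 °C, had 192 against 256 counts of oan-miR-7-1-3p, giving -0.73.

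Several hairpins with many reads of both strands had narrow intervals below equality. The log2 odds ratio was -0.55 for miR-222a, -0.52 for miR-145, -0.50 for miR-125b, -0.47 for miR-363 and -0.43 for miR-30c. Above equality were miR-143 at 0.16, miR-10c at 0.15, miR-301a and, highest, miR-130b. mmu-miR-130b-5p had 5342 counts at 32 °C, against 3551 counts at 29 °C, for a ratio of 0.59 (0.53 to 0.65), and aca-miR-130b-3p 14313 against 16191, a ratio of -0.18 (-0.21 to -0.14). The 5p strand was thus 27.2% of the hairpin's counts at 32 °C and 18.0% at 29 °C, a log2 odds ratio of 0.77 (0.70 to 0.84). In miR-301a, of the same family, the 3p strand was 23.2% at 32 °C and 17.0% at 29 °C, giving 0.56 (0.26 to 0.86).

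**Figure D5:**
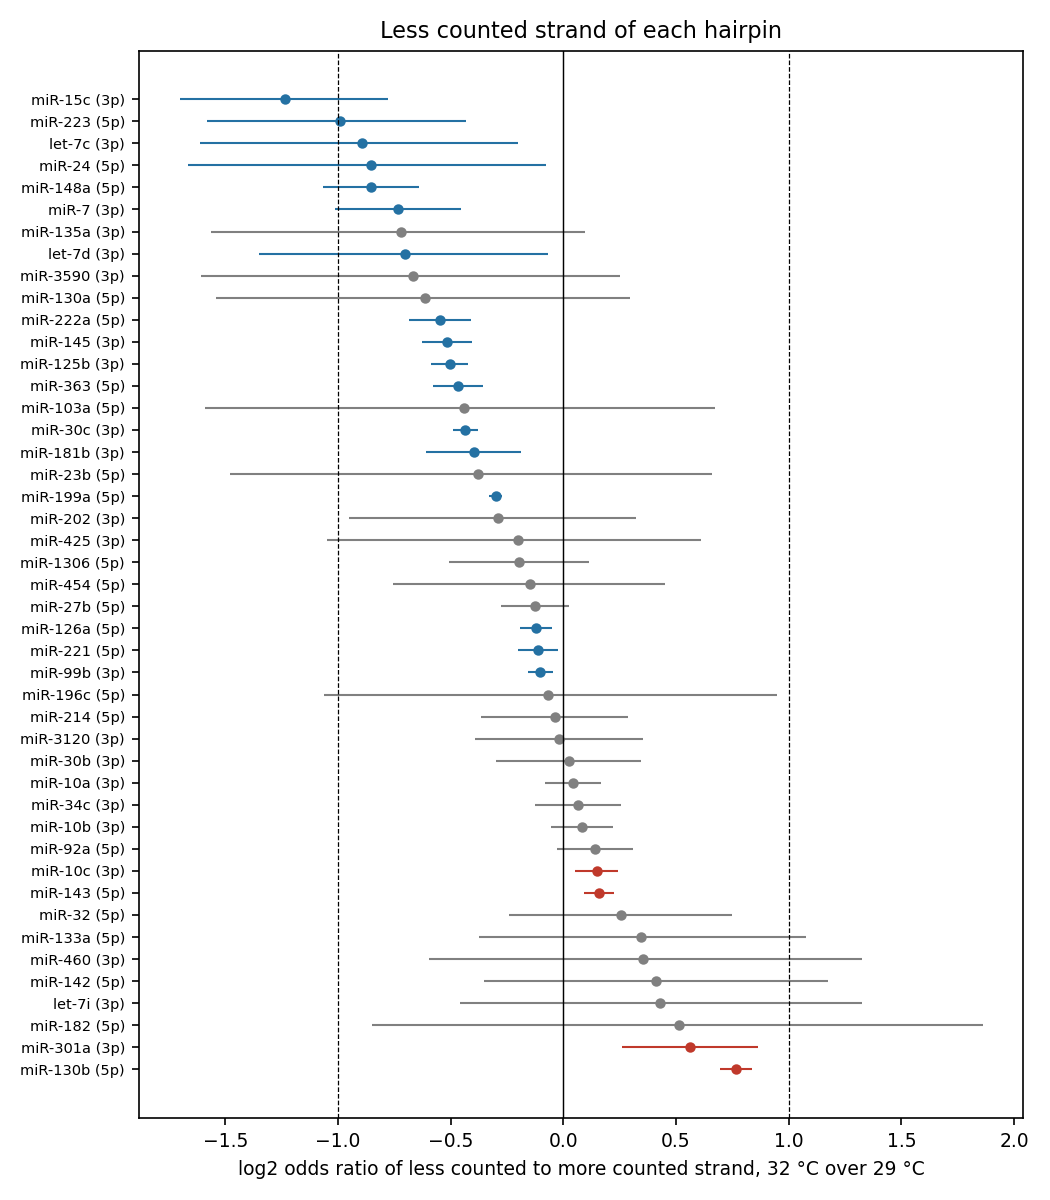
Log2 odds ratio of the less counted to the more counted strand, 32 °C over 29 °C, in 45 hairpins (the less counted arm in brackets), with 95% exact conditional intervals; blue and red mark intervals wholly below and above 0, and dashed lines mark 2-fold. Points lie left of 0 in 30 hairpins, with miR-15c furthest left at -1.23 and miR-130b furthest right at 0.77.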

How the data were processed

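Small RNA reads from 3 libraries, 1 per incubation temperature, each pooled over 3 biological samples, were analysed as 1 table. The deposited read counts per row, per the file headers, were used as raw counts. The TPM values deposited beside them, per the file headers, equalled the count over the column total with no length term. The submitters' processing notes name FastQC and Bowtie. Their versions, the build, the miRNA reference and the handling of multiply matching reads are not given in the sources used here, and a read assigned to several rows enters the column total more than once. Rows with a shared name and arm, or with the same number and 16 shared bases, were joined, and the row with the highest summed count stood for the miRNA. Distinct read groups, chosen after seeing the data, joined rows sharing 16 bases on either strand with counts within 10% or 3 counts. Ratios used column totals, at least 10 counts in either library, and a floor of 3 counts for a 0; no test between temperatures was possible. The text names members of the 40 lists, the 20 most abundant miRNAs, and up to 15 called named miRNAs and 8 predicted entries in each direction. The called ones were ranked by the interval bound nearest to equality, and only 2 named entries were called higher. Read groups that the joined entries leave under another name, ratios of strands and the motif were chosen after their values were seen, and members and lists with earlier results of these data known. Alternatives were TMM factors (edgeR 4.0.16), size factors (DESeq2 1.42.0), other totals, count minimums, joining rules and thresholds. Ratios were checked on simulated data. Calculations used Python 3.11.15, numpy 2.4.6, scipy 1.17.1, pandas 2.3.3, matplotlib 3.10.9 and R 4.3.3.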

Additional observations from a re-analysis of the deposited data

How the results depend on the processing

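No paired analysis was possible because the design has 1 library at either temperature, which also bars leaving a library out. The 50 lower entries became 31 with TMM factors, 19 with at least 50 counts, 78 with all rows, 18 among named miRNAs only and 15 with the whole interval beyond 2-fold. The 19 higher entries became 2 with at least 50 counts, 2 among named miRNAs only and 4 with the whole interval beyond 2-fold. The median ratio of -0.19 became -0.031 with TMM factors, -0.076 with DESeq2 size factors and -0.033 with at least 1 count. At that minimum a 0 set to the floor of 3 counts lies above a partner of 1 or 2 counts. The floor then turns the sign of the ratio, so the -0.033 depends on the floor as well as on the minimum. Hairpins apart in their strand ratio went to 8 from 1 at a 1.5-fold threshold. TMM factors kept 31 of the 50 lower and 19 of the 19 higher entries. Of 88 named values, 6 changed sign with TMM factors, and 5 were counted so with DESeq2 size factors. None of those called did. Of the 5, aca-miR-222a-5p was at 6.3e-15 with DESeq2 size factors, which is level up to rounding. Of 31 named calls that could be recomputed with counts summed over rows, 30 remained; dre-miR-144-5p did not. Of 34 list medians 8 changed sign with TMM factors, 6 with DESeq2 size factors and 1 with all rows, miR-125 at -0.19 from 0.04. The cause was not tested beyond the shift that a scaling applies to all ratios. With 9613861 counts at 32 °C and 9624436 at 29 °C, entries near the minimum of 10 counts have wide intervals, and spread between animals is unknown.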
